A study of Mus musculus with 15 samples.

Results

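Interferon-induced genes were followed in the gastrocnemius, a calf muscle, through 8 of them: Irf1, Irf7, Ifit1, Ifit3, Usp18, Ifitm3, Bst2 and Gbp2. All probe sets that the platform annotation assigns to these symbols were taken, which gave 9 probe sets of the 22626 tested, or 8 of the 12393 gene symbols on the array. Gbp2 was read by 2 probe sets and each of the other genes by 1. All animals were male C57BL/6NHsd mice, individually housed, with 5 mice in each of 3 groups and 1 MOE430A array per mouse. The young mice were 5 months old and the old mice 25 months old, both on the normal diet, which is itself somewhat below ad libitum feeding. The old CR mice were 25 months old and had been on lifelong caloric restriction (CR), with a caloric intake that differed by 26% from that of the normal diet and with protein, vitamins and minerals kept nearly equal. Poly(A)+ RNA of whole muscle was measured, so that fewer cells of a type and less RNA per cell cannot be told apart.

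Interferons are secreted proteins by which cells warn each other of viruses. Type I interferons act through the Ifnar1 and Ifnar2 receptor chains, the kinases Jak1 and Tyk2, and a complex with Stat2 and Irf9 that binds the interferon-stimulated response element (ISRE). Interferon gamma, which activated T and NK cells release, acts through Ifngr1 and Ifngr2, and its target genes carry the gamma-activated site (GAS). Most cells keep interferon-stimulated genes at a low level and switch them on in infection, and muscle fibers, resident macrophages and endothelium can all express them.

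The stretches before the annotated transcript starts are shown for the 5 genes in which the letters of either element lay before the start. RefSeq promoter entries (build GRCm38.p6, from 250 bases before to 50 bases after the start) were found for 7 of the 8 genes. Both strands were searched for the core letters of the ISRE, GAAA and GAAA with any 2 bases between them, and for those of the GAS, TTCNNNGAA. The stretches run 5′ to 3′ over the 200 bases before the start, at chr19:34640689-34640888 (plus strand), chr19:34583329-34583528 (plus strand), chr3:142620463-142620662 (plus strand), chr8:71537473-71537672 (minus strand) and chr11:53769814-53770013 (plus strand), and capitals mark the letters matched.
Ifit1: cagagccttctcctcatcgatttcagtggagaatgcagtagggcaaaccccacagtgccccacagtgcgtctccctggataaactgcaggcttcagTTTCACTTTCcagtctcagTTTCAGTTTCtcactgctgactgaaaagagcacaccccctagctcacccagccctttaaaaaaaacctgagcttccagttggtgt
Ifit3: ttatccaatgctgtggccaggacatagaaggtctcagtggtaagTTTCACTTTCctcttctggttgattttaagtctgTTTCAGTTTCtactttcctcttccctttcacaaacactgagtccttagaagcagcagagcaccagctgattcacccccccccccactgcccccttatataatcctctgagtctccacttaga
Gbp2: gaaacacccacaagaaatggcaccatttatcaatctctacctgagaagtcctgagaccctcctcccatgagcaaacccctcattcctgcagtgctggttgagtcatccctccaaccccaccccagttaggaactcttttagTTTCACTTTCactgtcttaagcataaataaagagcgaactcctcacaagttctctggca
Bst2: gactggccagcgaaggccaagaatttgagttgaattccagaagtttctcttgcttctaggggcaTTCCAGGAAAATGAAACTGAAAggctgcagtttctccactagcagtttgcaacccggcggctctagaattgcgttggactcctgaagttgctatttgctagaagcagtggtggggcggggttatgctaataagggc
Irf1: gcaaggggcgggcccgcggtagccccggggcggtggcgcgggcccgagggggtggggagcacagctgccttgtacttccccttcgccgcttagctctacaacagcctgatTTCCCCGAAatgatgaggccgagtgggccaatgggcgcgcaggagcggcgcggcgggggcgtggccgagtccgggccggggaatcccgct
Ifit1 and Ifit3 each held 2 copies of the ISRE letters on the opposite strand, TTTCACTTTC followed by TTTCAGTTTC, at -104 and -85 in Ifit1 and at -156 and -122 in Ifit3 (first base of the match, counted from the start). Gbp2 held 1 copy, TTTCACTTTC, at -59. In Bst2 the capitals cover 3 matches that overlap, a GAS match (TTCCAGGAA, at -136) and ISRE matches at -130 and -124. Irf1 held a GAS match alone, TTCCCCGAA at -90, in 1 of its 2 promoter entries. Ifitm3 held its matches after the start, ISRE letters at 3 and 20 and GAS letters at 14. No match to either set of letters lay in the window of Irf7. In all, 5 of the 7 genes held ISRE letters and 3 held GAS letters, whereas 3.44% of the 32851 promoter entries held the former and 8.3% the latter. The letters are a description of the windows and do not show that a factor binds there.

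**Figure D1:**
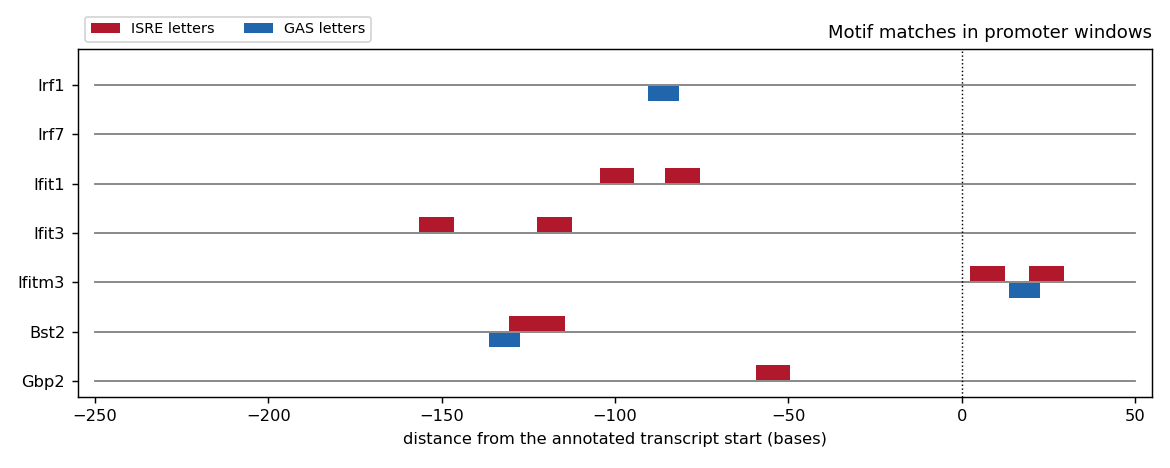
Positions of ISRE letters (red) and GAS letters (blue) in the promoter windows of 7 genes, with the distance from the annotated transcript start in bases on the horizontal axis and 1 line per gene. Matches lie before the start in Irf1, Ifit1, Ifit3, Bst2 and Gbp2 and after it in Ifitm3, and the line of Irf7 is empty.

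The labelled tissue was checked first. The 6 markers of fast skeletal muscle had a summed intensity of 132592 to 216574 over the 15 arrays, and any 2 arrays correlated at 0.906 to 0.952 across probe sets. The difference between 3′ and 5′ probe sets of Gapdh, a measure of RNA length, was 0.25 ± 0.10 (log2, SD, n = 5) in old mice, -0.04 ± 0.19 in young mice and -0.21 ± 0.12 in old CR mice. For Actb it was 0.01 ± 0.11, -0.32 ± 0.09 and -0.38 ± 0.09. The old mice thus differed from old CR mice in both controls (exact permutation test, two-sided, p = 0.00794, adjusted over 6 tests 0.0159). Because this measure moves with the groups compared, values fitted with the mean of both as an added term (the RNA length covariate) are given beside the results. No adjusted p of the 9 probe sets was under 0.05 with it. The same held for all 22626 probe sets in old against young and in old CR against old mice. The covariate did not overlap between old and old CR mice, so this fit cannot tell RNA length and diet apart. Between old and young mice it overlapped only through young replicate 3 (0.056) and old replicate 5 (0.049). The fit can therefore hardly tell RNA length and age apart either.

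None of the 8 genes passed the test in any comparison. Differences below are on the log2 scale and come from limma with all 3 groups in 1 fit, and p-values were adjusted over all 22626 probe sets. Between old and young mice 0 of the 9 probe sets had an adjusted p under 0.05, against 0.265% of all probe sets. Between old CR and old mice it was 0 of 9 against 4.87%, and between old CR and young mice 0 of 9 against 0.0884%. The groups did not overlap for 0 of the 9 in the first and 0 in the last of these comparisons, against 3.61% and 3.57% of all probe sets. Without adjustment, 0, 2 and 1 of the 9 had a p under 0.05 in these comparisons, where 15.5%, 21.9% and 12.1% of all probe sets did. The pairs of comparisons share mice, so they are given side by side and not as separate evidence. The median difference of the 9 probe sets was 0.02 for old against young, -0.10 for old CR against old and -0.21 for old CR against young, beside -0.06, 0.06 and -0.01 over all probe sets. Their median absolute difference was 0.13, 0.26 and 0.23, beside 0.26, 0.30 and 0.23.

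Gbp2, a guanylate-binding protein that coats intracellular pathogens, differed most between old CR and old mice among the 9 probe sets. Its intensity at 1418240_at was 201, 249, 276, 202 and 183 in young mice, 215, 242, 321, 266 and 359 in old mice, and 208, 212, 199, 172 and 79.9 in old CR mice. Every old CR mouse lay below every old mouse, while the young mice overlapped with both. The groups were apart in this way for 1 of the 9 probe sets, where 8.89% of all probe sets were. The means were 222 ± 38.8 in young, 281 ± 58.6 in old and 174 ± 55.1 in old CR mice (SD, n = 5). Old CR against old gave -0.74 (SE 0.25, 95% interval -1.29 to -0.20), or 0.597 times the old level, and the limma p was 0.0105 before and 0.101 after adjustment. Old CR replicate 7 weighed in this value, which was -0.48 without it (adjusted p = 0.149). With the RNA length covariate it was -0.09 (adjusted p = 0.985).

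The other probe set of Gbp2, 1435906_x_at, shared the order of the mean levels between the diets. It read 77.1, 89.8, 145, 112 and 111 in young mice, 151, 162, 135, 154 and 120.4 in old mice, and 147, 95.5, 106, 129 and 45.9 in old CR mice. Here old and old CR mice overlapped, since old CR replicates 2 and 6 lay above the lowest old mouse, and replicate 7 was again the lowest of all 15. The difference between old CR and old mice was -0.56 (-1.13 to 0.02, adjusted p = 0.242), it was -0.29 without old CR replicate 7, and it turned to 0.41 with the RNA length covariate. Old against young mice gave 0.46 (-0.12 to 1.03, adjusted p = 0.436) here and 0.33 (-0.21 to 0.87, adjusted p = 0.563) at 1418240_at, which turned to -0.25 and -0.15 with the RNA length covariate. The 2 probe sets correlated at r = 0.714 over the 15 arrays, and the ending of 1435906_x_at marks probes that may match other transcripts too. The mean of both, taken after seeing the data, gave -0.65 (-1.15 to -0.15, adjusted p = 0.123) for old CR against old mice.

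Ifit1, which binds viral RNA lacking the host's cap methylation and blocks its translation, had the next largest difference between the diets at an unadjusted p under 0.05. Its intensity was 237, 309, 249.8, 335 and 233 in young mice, 424, 202, 468, 255 and 306 in old mice, and 196, 256, 229, 216 and 149 in old CR mice. Old replicates 1 and 3 stood above all other mice, and old replicates 2 and 4 lay within the old CR range, so that the groups overlapped. The means were 273 ± 46.2, 331 ± 112 and 209 ± 40.0. Old CR against old gave -0.62 (SE 0.23, -1.10 to -0.13), or 0.653 times the old level, with an adjusted p of 0.131, and it was -0.07 with the RNA length covariate (adjusted p = 0.987). Old against young mice gave 0.23 (-0.26 to 0.71, adjusted p = 0.674), and -0.17 with the covariate.

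Ifit3, which acts in a complex with Ifit1, had group means that lay close together. The young mice read 299, 245, 182, 260.0 and 451, the old mice 273, 226, 413, 294 and 221, and the old CR mice 294, 196, 269.7, 336 and 284. The highest and the lowest of the 15 values were both in young mice, and the groups overlapped throughout. Its differences were 0.02 (-0.50 to 0.53) for old against young and -0.03 (-0.54 to 0.48) for old CR against old, with adjusted p of 0.983 and 0.957. With the RNA length covariate they were 0.42 and -0.58 (adjusted p = 0.902 and 0.882). The intervals without it leave room for a change of up to 1.44 times upwards and to 0.709 times downwards with age.

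**Figure D2:**
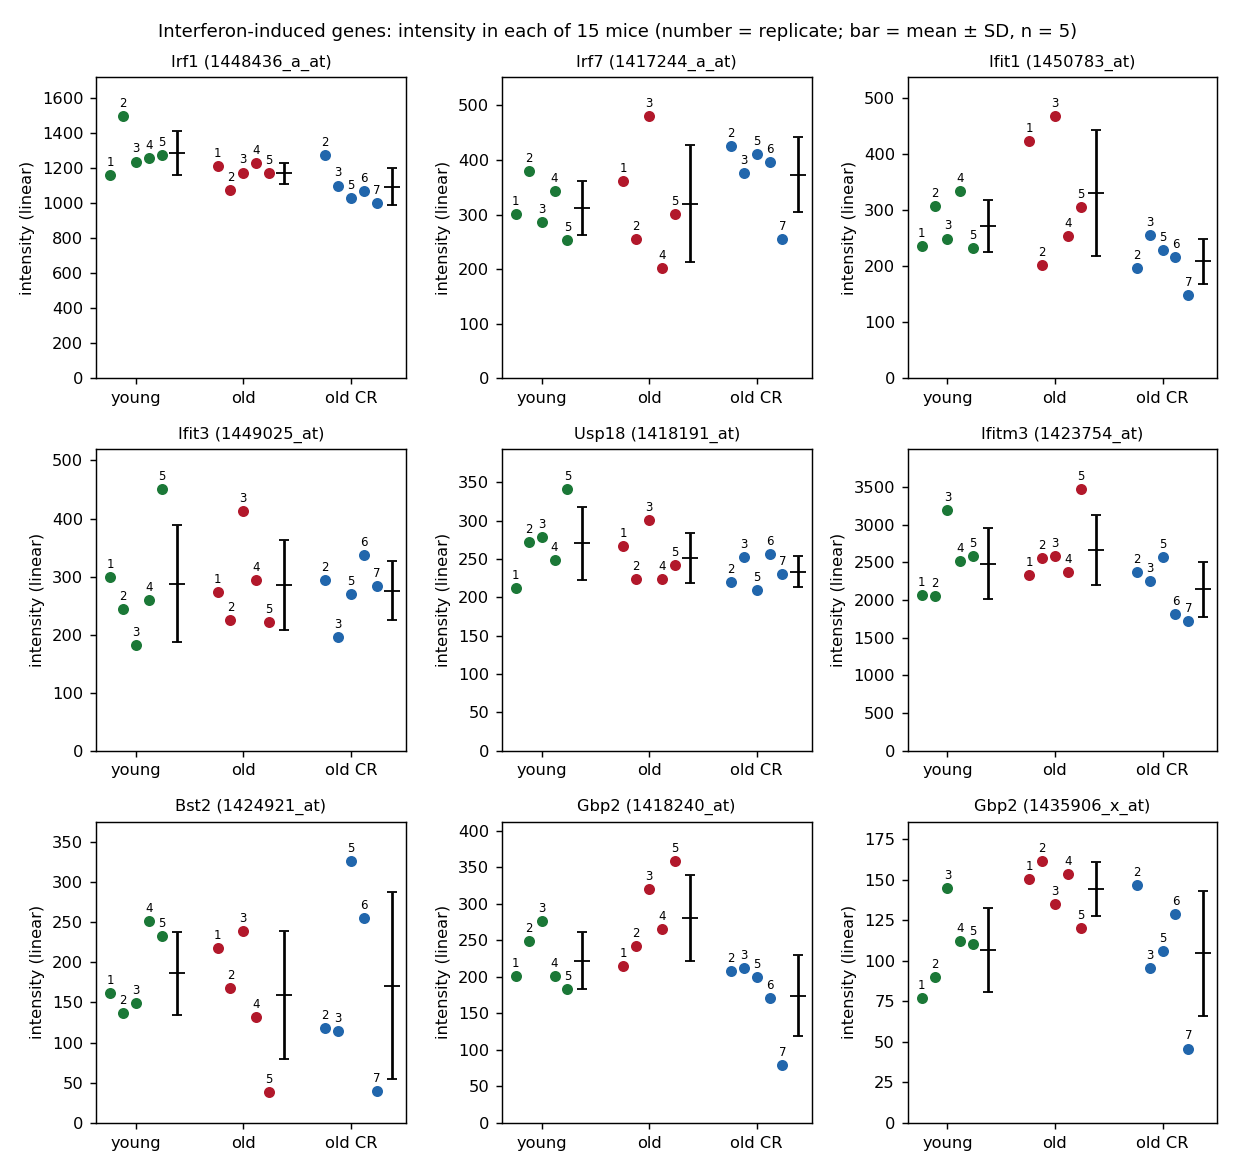
Linear intensity (vertical axis, from 0) of the 9 probe sets in each of the 15 mice, by group, with the replicate number above each point and the mean ± SD (n = 5) as a bar. At 1418240_at of Gbp2 all old CR mice lie below all old mice, and elsewhere the 3 groups overlap.

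Of the transcription factors, Irf7, the master regulator of type I interferon production, varied widely among old mice. They read 361, 255, 479.9, 203 and 302, the young mice 301, 380.3, 287, 343 and 253, and the old CR mice 426, 376, 412, 397 and 255. Old replicate 3 was the highest and old replicate 4 the lowest of all 15, a 2.37-fold range within the group, and all old CR mice lay between them. The differences were -0.02 (-0.49 to 0.46, adjusted p = 0.983) for old against young, 0.26 (-0.21 to 0.73, adjusted p = 0.529) for old CR against old and 0.24 (-0.23 to 0.72, adjusted p = 0.718) for old CR against young. Old CR against old was 0.11 without old replicate 4 and 0.42 without old replicate 3. The RNA length covariate gave -0.29 for old against young and 0.63 for old CR against old (adjusted p = 0.934 and 0.862).

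Irf1, a factor induced by interferon gamma that itself switches on antiviral and antigen presentation genes, had the narrowest intervals. The young mice read 1164, 1497, 1239, 1260.1 and 1275, the old mice 1216, 1075, 1177, 1228 and 1172, and the old CR mice 1274, 1102, 1029.8, 1069 and 1002. Its mean was 1287 ± 125 in young, 1174 ± 60.0 in old and 1095 ± 107 in old CR mice, in descending order, with the groups overlapping at each step. The steps were -0.13 (-0.36 to 0.10, adjusted p = 0.597) for old against young and -0.10 (-0.34 to 0.13, adjusted p = 0.623) for old CR against old. Across both, old CR against young gave -0.23 (-0.46 to -0.00), with a p of 0.0493 before adjustment and 0.412 after it in limma. With the RNA length covariate the 3 values were -0.22, 0.03 and -0.20.

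Usp18, the protease that removes Isg15 from proteins and holds back signalling at Ifnar2, had the smallest coefficient of variation of the 9 probe sets in old CR mice (8.71%), with values of 209.6 to 256. The young mice read 212 to 342 and the old mice 224 to 302. The means were 271 ± 47.7, 251 ± 33.0 and 234 ± 20.4, with differences of -0.10 (-0.40 to 0.20, adjusted p = 0.784) for old against young and -0.10 (-0.40 to 0.20, adjusted p = 0.724) for old CR against old. With the RNA length covariate these were -0.30 and 0.17.

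Ifitm3 and Bst2 are membrane proteins that restrict viruses. Ifitm3, which blocks the fusion of viruses with endosomes, read 2064, 2049.5, 3191, 2518 and 2579 in young mice, 2332, 2552, 2577, 2375 and 3475 in old mice, and 2366, 2246, 2564, 1815 and 1719 in old CR mice. Old CR replicates 6 and 7 lay below every other mouse, and old replicate 5 above every other. Old CR against old gave -0.32 (-0.67 to 0.04, adjusted p = 0.292), which was -0.21 without old replicate 5 and -0.06 with the RNA length covariate, and old against young gave 0.11 (-0.25 to 0.46, adjusted p = 0.807), which was 0.01 without old replicate 5 and -0.08 with the covariate.

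Bst2, or tetherin, which holds budding virus at the cell surface, had the widest intervals of the 9. It read 162, 137, 149, 251 and 233 in young mice, 217, 168, 239, 132 and 38.7 in old mice, and 119, 115, 326, 255 and 39.6 in old CR mice. Old replicate 5 and old CR replicate 7 stood far below the other 13 mice, so the highest value was 6.18 times the lowest in old and 8.22 times in old CR mice. The differences were -0.42 (-1.62 to 0.77, adjusted p = 0.762) for old against young and 0.00 (-1.20 to 1.20, adjusted p = 0.9996) for old CR against old. Without old CR replicate 7 the latter was 0.44, and without old replicate 5 it was -0.45. With the RNA length covariate the differences were -1.12 and 0.96 (adjusted p = 0.889 and 0.917). Between old CR and young mice the probe sets other than those of Irf1 and Irf7 differed by -0.42 to -0.02, with adjusted p of 0.533 to 0.990 in limma.

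**Figure D3:**
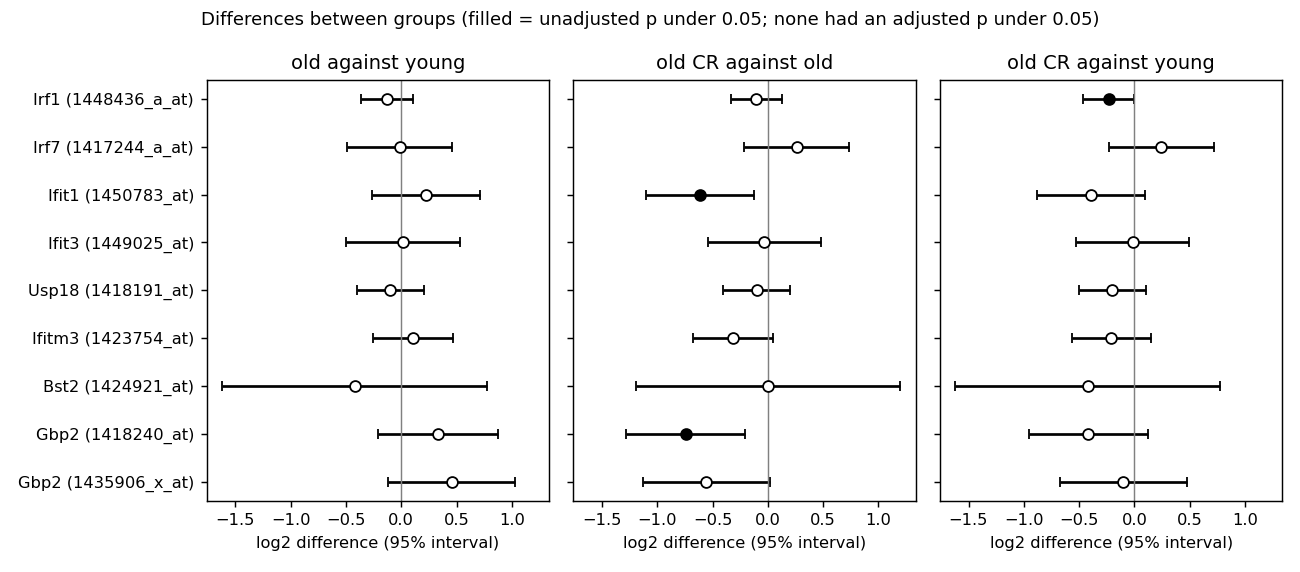
Log2 differences between groups (horizontal axis) of the 9 probe sets, with their 95% intervals from limma, for old against young, old CR against old and old CR against young. Filled points had an unadjusted p under 0.05, which holds for Ifit1 and Gbp2 (1418240_at) in old CR against old and for Irf1 in old CR against young, and none had an adjusted p under 0.05.

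Single mice stood out across several of the genes, as seen after the values were examined. Old replicate 3 had the highest intensity of its group in 5 of the 8 genes and lay above the group mean in 7, by 0.39 on average on the log2 scale. Old CR replicate 7 had the lowest intensity of its group in 6 of the 8 genes, with an average of -0.52. This array also had the lowest value of the RNA length covariate among all 15 (-0.42, the next being -0.32). How often these arrays were the highest or lowest of their group over all probe sets was not counted. The counts are therefore not shown to be particular to these genes. Old replicate 5, by contrast, was at once the highest old mouse for Ifitm3 and for Gbp2 at 1418240_at and the lowest for Bst2, Ifit3 and Gbp2 at 1435906_x_at.

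Irf7 and Ifit1 varied most closely together among the mice of a group. Their deviations from the group means correlated at r = 0.838 over the 15 arrays, which is given as a description of pairs of genes read on the same arrays, while without removing the group means r was 0.409 and rho 0.225. In old mice both were highest in replicate 3 and next highest in replicate 1, and in old CR mice both were lowest in replicate 7. Ifitm3 and Gbp2 followed with 0.631. Over the 28 pairs of genes the within-group r ran from -0.365, for Ifit3 and Ifitm3, to 0.838, with a median of 0.21, and 24 pairs were above 0. The same was not counted for pairs of other genes, so these figures are not shown to be particular to this set. Ifit1 and Ifit3, which hold the same pair of ISRE letters, had an r of 0.098.

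**Figure D4:**
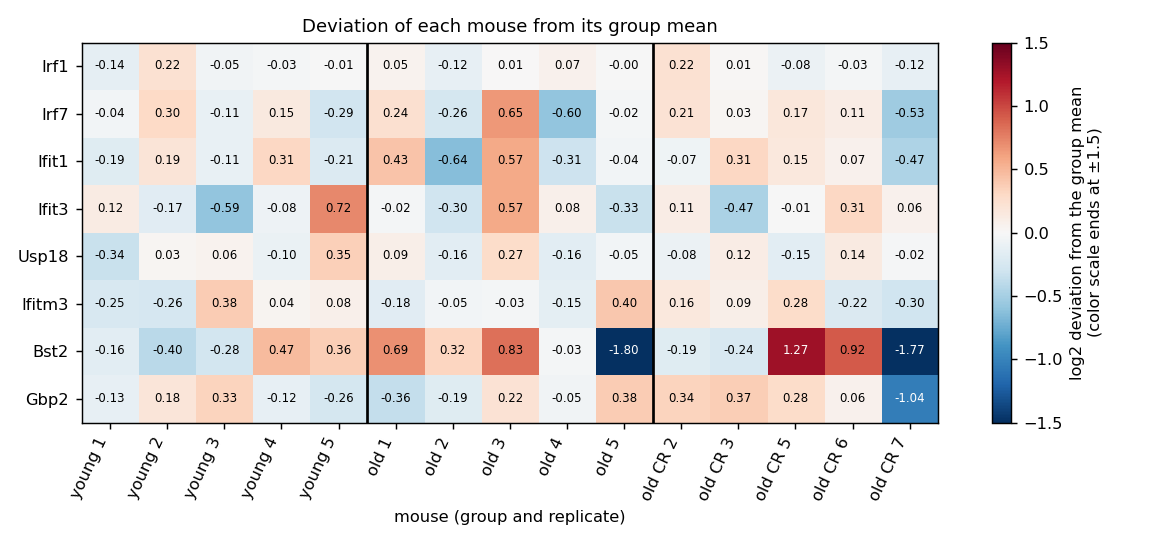
Deviation of each mouse from the mean of its group (log2, in each cell and as color) for the 8 genes, with Gbp2 read at 1418240_at. Old replicate 3 is above its group mean in 7 genes and old CR replicate 7 below it in 7.

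The genes whose log2 levels ran most like each of the 8 over the 15 arrays were found among the brightest probe sets, as many as the detection filter of the study had kept. There, Irf1 was most like Notch3 (Pearson r = 0.876), Irf7 like Vsir (0.823), Ifit1 like Fam53a (0.775) and Ifit3 like Tpm1 (0.704). Usp18 was most like Mrgpra3 (0.732), Ifitm3 like Tm2d2 (0.875), Bst2 like Ube2f (0.772) and Gbp2 like Zdhhc14 (0.907). For Ifitm3 the next were Clu (0.864) and Serping1 (0.863). Each is the highest of many values from the same 15 arrays, which the genes share, and is given with no test.

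Markers of other cell types that express many of these genes, macrophages first, were read beside them. All 9 markers on the list were measured, none was listed at 0, and their summed intensity ran from 4398 to 10557 in young, 7565 to 11179 in old and 5679 to 7425 in old CR mice, so that the old and old CR mice did not overlap. Of the 9 markers 7 were lower in old CR than in old mice, among them Csf1r (-0.58, adjusted p = 0.0589) and C1qa (-1.13, adjusted p = 0.441), while Cd68 (0.29, adjusted p = 0.440) and Cd14 (0.02, adjusted p = 0.966) were not. None of the 9 had an adjusted p under 0.05 in limma, and 2 (22.2%) had an unadjusted one, against 21.9% of all probe sets. The 5 measured of 6 markers of B and plasma cells summed to 1603 to 3532 in young, 2155 to 6360.2 in old and 771 to 3382 in old CR mice. Most of this sum was Ighm, with means of 1656, 3691 and 1552. Old against young gave 1.08 for Ighm and 1.84 for Jchain, but -0.45 for Cd79a, -0.63 for Cd79b and -0.07 for Ms4a1. Old CR against old gave -1.48, -1.67, 0.23, 0.44 and -0.16 in the same order. None of these had an adjusted p under 0.05 in limma. The 7 markers of T and NK cells summed to 596 to 725 in young, 415 to 585 in old and 425 to 622 in old CR mice, so that young and old mice did not overlap. All 7 had a negative difference for old against young, with a median of -0.09 and a smallest adjusted p of 0.241 in limma. Some were faint, with means in old mice of 25.9 for Cd3d and 38.5 for Cd4. The 2 measured adipocyte markers, Adipoq (-1.19, adjusted p = 0.0693) and Cidec (-0.89, adjusted p = 0.187), both had an unadjusted p under 0.05 in old CR against old mice, and summed to 1966 to 4608 in young, 2555 to 6726 in old and 895 to 2879.9 in old CR mice. The 5 endothelium markers summed to 2802 to 3208 in young, 2335 to 2998 in old and 2634 to 3448 in old CR mice. With CR 3 of them were higher than in old mice and 2 lower. Pecam1 gave 0.79 (adjusted p = 0.0529), with old and old CR mice not overlapping. Of the 4 fibroblast markers 2 were higher with CR, among them Lum (0.52, adjusted p = 0.0611), and 2 lower. Of the 2 measured neutrophil markers 1 was higher and 1 lower. The markers named here were chosen after their values were seen. What part these cells had in the values of Gbp2, Ifit1 or Ifitm3 was not tested.

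The rest of the interferon system was read through 7 lists with 151 genes. The brightest probe set stood for each gene, and 113 genes had one. Isg15 was not analysed here. In old against young mice 0 of the 113 had an adjusted p under 0.05 in limma, against 0.265% of all probe sets. An unadjusted one was seen for 10 (8.85%, against 15.5%). In old CR against old mice 3 rose and 3 fell, or 5.31% of the 113 against 4.87% of all probe sets, and 21.2% had an unadjusted p under 0.05 against 21.9%. In old CR against young mice 0 of 113 had an adjusted p under 0.05, against 0.0884% of all probe sets, and 14 an unadjusted one (12.4%, against 12.1%). The median difference of the 113 was -0.01, -0.12 and -0.08 in these comparisons, beside -0.06, 0.06 and -0.01 over all probe sets.

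Upstream, 2 genes passed the test, both in old CR against old mice. Of the 14 measured interferons and receptor chains 0 were called in any comparison, and the receptor chain Ifnar1 read 256 to 307 in young, 225 to 282 in old and 221 to 282 in old CR mice. The other chain, Ifnar2, gave -0.32 for old CR against old and -0.47 for old CR against young mice (adjusted p = 0.374 and 0.357). The type I interferons Ifna5 and Ifna4 gave 1.61 and 0.74 for old CR against old (adjusted p = 0.144 and 0.165). Both were faint, with means in old and old CR mice of 18.0 and 68.6 for Ifna5 and 15.1 and 24.1 for Ifna4. The array medians were 201 to 243. The probe set of Ifna5 ends in x_at, which marks probes that may match other transcripts too. In the JAK-STAT and IRF list 1 gene rose and 1 fell with CR among 18, or 11.1% against 4.87% of all probe sets. An unadjusted p under 0.05 was seen for 27.8% of that list in old CR against old and for 22.2% in old against young mice, against 21.9% and 15.5% of all probe sets. Tyk2, the kinase bound to Ifnar1, read 569, 495, 516, 515 and 544 in old mice and 389, 397, 399, 374 and 387 in old CR mice, with every old CR mouse below every old and every young mouse, and fell by 0.44 (SE 0.10, adjusted p = 0.0270). Stat2 rose by 0.82 (SE 0.22, adjusted p = 0.0471), from 76.2 to 122 in old mice to 141 to 231 in old CR mice, whereas its other probe set gave 0.30 (adjusted p = 0.780). In old against young mice the smallest adjusted p of this list was that of Ifi35, a regulator that is itself interferon-induced, at -1.06 (adjusted p = 0.0617), followed by Stat2 at -0.76 (0.121) and Irf2 at 0.72 (0.141). The other probe set of Stat2 went the opposite way with age, at 0.51 (adjusted p = 0.669). None of the 17 measured nucleic acid sensors and adaptors was called, the smallest adjusted p with CR being that of Mavs (0.35, adjusted p = 0.134).

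Of 39 further interferon-stimulated genes 1 fell with CR, or 2.56% against 4.87% of all probe sets. An unadjusted p under 0.05 was seen for 12.8% of them, against 21.9% of all probe sets. In 28 the mean was lower in old CR than in old mice, a share that was not counted over all probe sets. Their median difference was -0.17, beside 0.06 over all probe sets. The gene that fell was Ifi27l2a, a small membrane protein, with 838, 577, 702, 649 and 951 in old mice and 438, 237, 367, 433 and 375 in old CR mice, a difference of -1.02 (SE 0.24, adjusted p = 0.0324). Of the 4 Ifitm relatives, Ifitm2, the neighbour and near copy of Ifitm3, rose by 0.70 (SE 0.14, adjusted p = 0.0153), from 1164, 1127, 1195, 1044 and 1492 in old mice to 2310.0, 1955, 1884, 2055 and 1605 in old CR mice, where Ifitm3 itself gave -0.32. Because Ifitm2 and Ifitm3 are alike in sequence, their probes may share signal.

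Among the 10 measured GTPases 1 gene rose with CR and among the 11 measured peptide processing genes 1 fell. Of all probe sets 4.87% were called in old CR against old mice, so 1 call in a list this short says little about the list. Without adjustment, 40.0% of these GTPases (1 higher and 3 lower) had a p under 0.05 in limma. For the peptide processing genes it was 36.4% (2 higher and 2 lower), against 21.9% of all probe sets. Gbp6, a relative of Gbp2, rose by 1.11 (SE 0.26, adjusted p = 0.0303), from 121 to 133 in old mice to 191 to 425 in old CR mice, while the immunity-related GTPases Iigp1 and Irgm2 gave -0.70 (adjusted p = 0.0702) and -1.67 (adjusted p = 0.0834) among the 10 measured. Tap1, a subunit of the peptide transporter that supplies MHC class I, fell by 0.61 at its brightest probe set (SE 0.16, adjusted p = 0.0412). This read 252 to 334 in old mice and 139 to 262 in old CR mice. Its other 3 probe sets gave -0.42, -0.34 and 1.23 and were not called (adjusted p = 0.674, 0.647 and 0.300). The mean over all its probe sets gave -0.03 and was not called. The proteasome genes Psme1 and Psmb10 gave 0.41 (adjusted p = 0.0857) and 0.56 (adjusted p = 0.109) with CR. In old against young mice Psme1 gave -0.55 (adjusted p = 0.0812).

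These 6 calls differed in how much they rested on single arrays. Ifitm2 kept its call whichever of the 15 arrays was left out. Tyk2 lost it without old replicates 1, 3 or 5 or old CR replicates 5, 6 or 7 (adjusted p 0.0508 to 0.0585), and Ifi27l2a without old replicates 1, 3 or 5 or old CR replicates 3, 5 or 7 (0.0603 to 0.0705). Gbp6 lost it without any 1 of the 5 old replicates or old CR replicates 2, 6 or 7 (0.0505 to 0.0659). Tap1 kept it in 3 of the 15 cases, without young replicates 2 or 3 or old CR replicate 6 (otherwise 0.0526 to 0.0921), and Stat2 in 2, without young replicates 3 or 5 (otherwise 0.0533 to 0.104). All 6 lost it with the RNA length covariate, under which the differences were 0.50 for Ifitm2, -0.30 for Tyk2, -0.55 for Ifi27l2a, -0.72 for Tap1, 0.42 for Stat2 and -0.23 for Gbp6. That fit called 0 of all 22626 probe sets in old CR against old mice, so the loss is not particular to these genes. The covariate itself did not overlap between old (0.049 to 0.27) and old CR mice (-0.42 to -0.21).

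**Figure D5:**
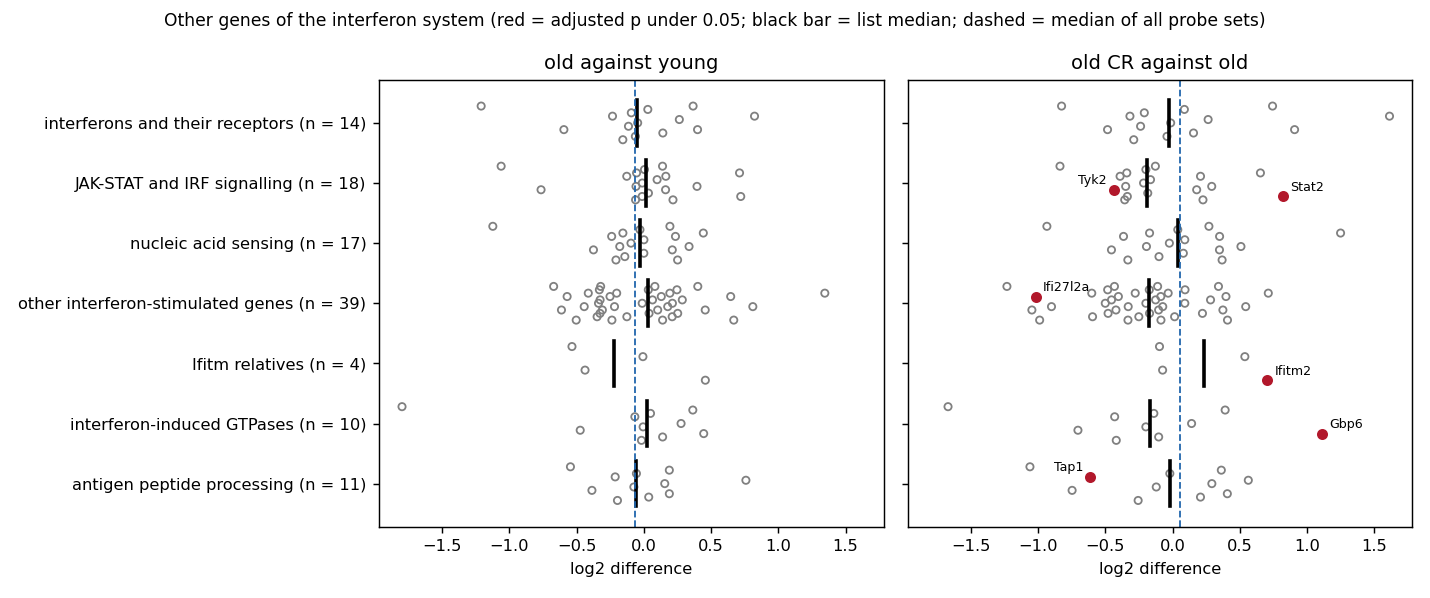
Log2 difference (horizontal axis) of 113 genes in 7 lists, 1 point per gene, for old against young and old CR against old, with the median of each list as a black bar and that of all probe sets as a dashed line. Red points, with names, had an adjusted p under 0.05 in limma, which holds for 6 genes in old CR against old, 3 on each side of 0.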

How the data were processed

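Poly(A)+ RNA from the gastrocnemius of 15 mice was hybridized to 1 MOE430A array each. Per the table the authors deposited, each probe set has 1 linear intensity on each array. Its mean after trimming 2% at each end is 500.0 on every array while the quartiles differ, which is what scaling of single arrays leaves. MAS5 and RMA are named in the submitters' processing notes, and the deposited values are not quantile-normalized as RMA values are. Detection calls and the lognormal-normal model of the paper's methods were not used here.

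Intensities were converted to log2 with no pseudocount and 64 control probe sets were left out. The other 22626 went into limma 3.58.1 under R 4.3.3 (lmFit, contrasts, eBayes), with the 3 groups in 1 fit and Benjamini-Hochberg adjustment over all of them, and called at an adjusted p under 0.05. Intervals are 95% intervals of the fit. Precision is limited by the number of arrays. Of the probe sets 20380 had 1 symbol in the platform annotation, 691 had several, from which no gene was named, and 1555 had none. Genes of the lists were named where called, or among the up to 3 of smallest p per list and comparison, and 1 gene per list could be named for its role (Ifnar1). Single values were compared by exact permutation tests in Python 3.11.15 with SciPy 1.17.1. The genes, lists and rules were chosen with earlier results of these data known. The fit was tested on simulated data. Alternatives were the brightest probe sets alone (as many as the study's detection filter kept), median centering, quantile normalization, a pseudocount of 16, only the 2 groups compared, a variance trend with robust eBayes, a block for the replicate number, weights for arrays, a threshold of 0.10 for the adjusted p, an RNA length covariate (3′ less 5′ signal, averaged over Actb and Gapdh), and leaving out each array. For the lists the average over a gene's probe sets was also tried, and for Gbp2, after seeing the data, the mean of its 2 probe sets.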

Additional observations from a re-analysis of the deposited data

Results flagged for a closer look

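For Ifitm3, old replicate 5 stood apart from its group, with an intensity of 3475 against 2332 to 2577 in the other 4 old mice. The gap to the nearest of them was 0.785 of the range of the group, above Dixon's critical value of 0.71 for 5 samples. On this linear scale it was the only one of 27 combinations of probe set and group to pass the limit, and chance flags about 1 in 20 such groups. The limit was not applied to the log2 values on which the differences were fitted. There old CR replicate 7 also stood apart from its group. It read 6.32 for Gbp2 at 1418240_at, against 7.42 to 7.73 in the other old CR mice. For Irf7 it read 7.99, against 8.55 to 8.73.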

How the results depend on the processing

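None of the 8 genes was called under any alternative, and of 669 alternative values of their differences 631 kept their direction and 38 changed sign, none of which had an unadjusted p under 0.05 as reported. The smallest adjusted p was 0.0569, for Ifit1 in old CR against old mice among the brightest probe sets, which leave out Bst2 and both probe sets of Gbp2. For old against young mice the sign turned for Irf7 with median centering (0.075), quantile normalization (0.043) and array weights (0.034), for Ifit3 with array weights (-0.038), and with the RNA length covariate for Ifit1 (-0.17), Ifitm3 (-0.079) and Gbp2 (-0.15, and -0.25 at 1435906_x_at). For old CR against old mice it turned for Bst2 with median centering (-0.087) and quantile normalization (-0.11), and with the covariate for Irf1 (0.027), Usp18 (0.17) and Gbp2 at 1435906_x_at (0.41). For old CR against young mice it turned for Gbp2 at 1435906_x_at with the covariate (0.16). Leaving out single arrays gave ranges through 0 for Irf7 (-0.18 to 0.13), Ifit3 (-0.13 to 0.20) and Bst2 (-0.63 to 0.028) in old against young, for Ifit3 (-0.11 to 0.11) and Bst2 (-0.45 to 0.44) in old CR against old, and for Ifit3 (-0.16 to 0.16), Bst2 (-0.74 to 0.021) and Gbp2 at 1435906_x_at (-0.25 to 0.17) in old CR against young. Same-numbered mice of different groups deviated with correlations of -0.27 to 0.08, so the numbers do not pair them. With the replicate block, Bst2 (0.024) and Gbp2 at 1435906_x_at (0.10) changed sign in old CR against young, and 0 of the 113 list genes were called in old CR against old. Of these 113, the 6 called in old CR against old became 10 at an adjusted p under 0.10, 0 with the covariate and 1 to 7 with an array left out (1 without old replicate 3 or 5, and 2 to 3 without old replicates 1, 2 or 4 or old CR replicates 5, 6 or 7). The 0 called in old against young became 1 among the brightest, 2 with a variance trend, 3 with array weights, 2 at an adjusted p under 0.10 and 0 to 5 with an array left out (5 without young replicate 3, 1 without old CR replicate 7). In old CR against young, 1 was called among the brightest, with a variance trend and at an adjusted p under 0.10, and 0 with any array left out. Over all probe sets the calls in old against young were 60, against 603 among the brightest and 0 with the block or the covariate, and in old CR against old 1102, against 1812, 4 and 0. Median centering moved the median of all probe sets from -0.06 to 0.03 and from 0.06 to -0.03. The cause of these shifts was not tested.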
